A study of Rattus norvegicus with 8 samples.

Results

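Interferon-stimulated genes are the genes that a cell switches on when it senses an interferon, and 9 of them, *Isg15*, *Mx1*, *Ifit2*, *Ifit3*, *Irf7*, *Irf1*, *Rsad2*, *Usp18*, and *Oas1a*, were followed in rat Achilles tendon among the 32883 genes of the deposited count table. The genes were found by their symbols, and each symbol matched 1 gene. All 9 passed the filter on low counts, with 13937 genes tested in all. The right Achilles tendons came from wild-type male Sprague-Dawley (SD) rats, 8 to 10 weeks old. The running group (12 h p.r.) held 4 rats that ran for 1 hour on a treadmill at 20 m/min and an incline of 10 degrees and were then killed after 12 hours of rest. The 4 rats of the naïve control group (NC) stayed in their cages and were killed at the same time. Polyadenylate mRNA was sequenced with 1 library per rat, so the spread between values is a spread between rats.

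Type I interferons bind a receptor pair on the cell surface, whose kinases activate a transcription factor complex that contains IRF9. This complex binds the interferon-stimulated response element (ISRE) in the promoters of most genes of the family. Interferon-gamma acts through another receptor and the gamma-activated site (GAS), and *Irf1* is a well-known target of this route. The products fall into regulators that extend or stop the response, a ubiquitin-like protein and its protease, and effectors that act on viral RNA or on virus assembly. Many tissues hold a low tonic level of these transcripts without infection.

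To show what the promoters share, 200 bases before the annotated start are given for the 6 members that matched the RefSeq promoter table of build GRCr8: *Mx1*, *Ifit3*, *Irf7*, *Irf1*, *Rsad2*, and *Oas1a*. The window lies at chr12:41330266-41330465 (+ strand) for *Oas1a*, chr1:241527126-241527325 (+ strand) for *Ifit3*, chr1:205800024-205800223 (- strand) for *Irf7*, and chr6:48788121-48788320 (- strand) for *Rsad2*. It lies at chr10:38417735-38417934 (+ strand) for *Irf1* and at chr11:50294607-50294806 (- strand) for *Mx1*. The sequences run 5′ to 3′ on the strand of the gene. Capitals mark an ISRE core, searched as GAAA, any 2 bases, and GAAA again (TTTC, any 2 bases, and TTTC on the other strand), or a GAS, searched as TTC, any 3 bases, and GAA, which reads the same on both strands. The 4 promoters with an ISRE core come first.
Oas1a: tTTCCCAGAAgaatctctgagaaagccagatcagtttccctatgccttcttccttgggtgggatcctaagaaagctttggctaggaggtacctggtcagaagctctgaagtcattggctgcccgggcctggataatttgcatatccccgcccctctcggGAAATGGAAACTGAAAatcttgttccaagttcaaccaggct
Ifit3: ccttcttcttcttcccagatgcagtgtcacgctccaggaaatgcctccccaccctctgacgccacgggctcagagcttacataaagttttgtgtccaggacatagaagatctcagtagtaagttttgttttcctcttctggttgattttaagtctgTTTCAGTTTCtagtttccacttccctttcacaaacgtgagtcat
Irf7: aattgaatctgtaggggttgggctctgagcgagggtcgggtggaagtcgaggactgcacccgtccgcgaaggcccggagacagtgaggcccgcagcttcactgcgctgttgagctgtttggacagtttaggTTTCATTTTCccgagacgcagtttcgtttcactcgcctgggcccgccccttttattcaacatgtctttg
Rsad2: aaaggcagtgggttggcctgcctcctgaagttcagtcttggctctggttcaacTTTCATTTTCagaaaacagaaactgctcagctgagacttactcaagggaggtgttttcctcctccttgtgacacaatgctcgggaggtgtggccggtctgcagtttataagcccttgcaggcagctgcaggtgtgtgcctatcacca
Irf1: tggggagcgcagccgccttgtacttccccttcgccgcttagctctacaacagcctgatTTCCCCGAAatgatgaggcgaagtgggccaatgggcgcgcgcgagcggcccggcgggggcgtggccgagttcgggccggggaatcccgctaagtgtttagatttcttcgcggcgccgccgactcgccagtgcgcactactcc
Mx1: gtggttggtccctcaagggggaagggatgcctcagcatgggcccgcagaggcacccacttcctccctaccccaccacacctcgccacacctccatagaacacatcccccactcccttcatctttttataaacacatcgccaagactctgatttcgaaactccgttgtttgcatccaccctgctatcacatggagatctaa

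In the table's windows of 250 bases before to 50 after the start, 4 of 6 members held an ISRE core, against 3.92% of all 33469 promoters. *Oas1a* held 2 overlapping copies at −41 to −26, counted from the annotated start. *Ifit3* held its copy at −44 to −35, *Irf7* at −69 to −60, and *Rsad2* at −147 to −138. *Irf1* held a GAS at −142 to −134 and no match to the ISRE core, and *Oas1a* held a GAS at −199 to −191 besides its ISRE cores. A GAS was in 8.87% of all promoters. The 33 promoters found for other antiviral effector genes held an ISRE core in 22 cases, and the 20 found for interferon-gamma and antigen presentation genes in 14. The core was in 4 of 8 promoters of ligands, 2 of 8 of sensors and adaptors, 1 of 9 of receptors and signaling genes, and 0 of 5 of other interferon regulatory factors. A match of letters is a description of the sequence, and the RNA data do not show what binds there.

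**Figure D1:**
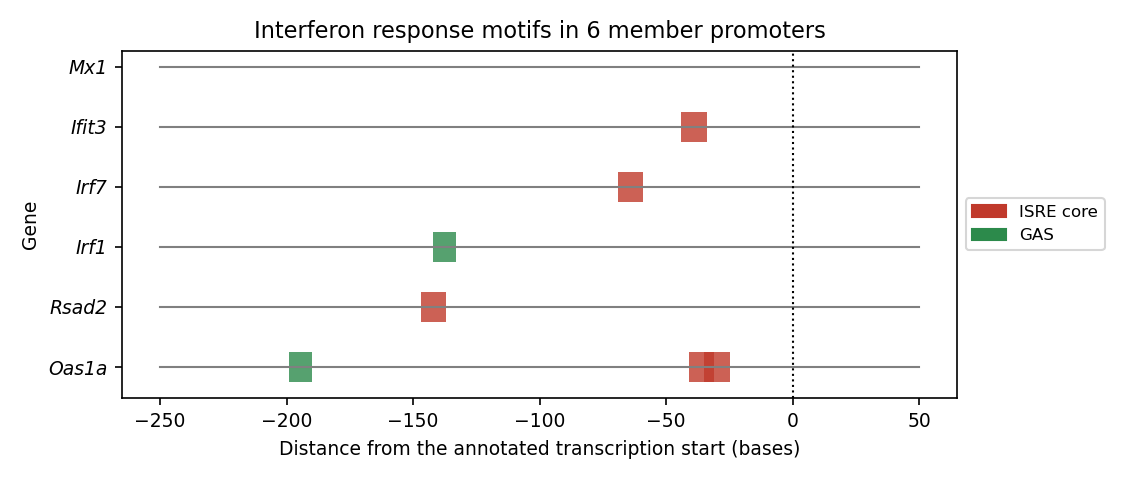
Positions of ISRE core (red) and GAS (green) matches along the promoter windows of the 6 members found in the RefSeq table, with distance from the annotated transcription start in bases on the x axis and 1 line per gene. Of these, 4 hold an ISRE core, *Irf1* holds a GAS alone, and *Mx1* holds neither.

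Reads counted on genes ran from 7350509 to 12951397 per rat, and at this depth 3 reads correspond to 0.227 to 0.395 CPM (read counts per 1e6 reads of the library size scaled by TMM, the trimmed mean of M values). Tenocyte markers were high in every rat, with a summed level of 8 genes between 16300 and 48500 CPM. The rat with the lowest tenocyte sum, 12 h p.r. replicate 3, held the most skeletal muscle RNA, with 8 markers summing to 56900 CPM against at most 10000 CPM in the other rats. In bulk tissue, fewer cells of a type and less RNA per cell cannot be told apart.

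Resting tendon held all 9 transcripts. Levels of different genes were compared as FPKM, the deposited length-scaled values. The medians given here pool the running and the NC rats. The median over the 8 rats was highest for *Ifit2* (20.6 FPKM), *Irf1* (20.3 FPKM), and *Irf7* (18.9 FPKM). These neighbours in the order were not separated, since *Ifit2* was above *Irf1* in 4 of 8 rats and *Irf1* above *Irf7* in 5 of 8. *Ifit3* (11.7 FPKM) followed, below *Irf7* in all 8 rats. *Isg15* (8.1 FPKM) and *Usp18* (7.9 FPKM) were close, with *Isg15* the higher in 3 of 8 rats. *Mx1* (4.15 FPKM) and *Oas1a* (3.78 FPKM) were also close, with *Mx1* the higher in 2 of 8 rats. *Rsad2* was the lowest at 1.5 FPKM, below *Oas1a* in 7 of 8 rats. In the NC rats alone the order differed in part. There the mean of *Irf7* (21.8 FPKM) was above that of *Irf1* (18 FPKM), and *Usp18* (9.62 FPKM) was above *Isg15* (8.41 FPKM).

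The groups were compared to ask whether the interferon-stimulated transcripts differed 12 hours after a run. In every one of the 9 genes, the highest of the 8 rats was the same animal, 12 h p.r. replicate 1, while in all but *Irf1* each of the other 3 running rats was below NC replicates 1, 3, and 4. Among all genes tested, this rat was the highest in 13%. It was at least 2-fold above every other rat in 8 of the 9 members, against 0.431% of all genes tested. By the quasi-likelihood test of edgeR with p values adjusted after Benjamini and Hochberg, 0 of the 9 members were under 0.05, where 0.00718% of genes tested were. At an unadjusted p value under 0.05, 1 of the 9 differed (*Irf1*, higher), against 9.51% of all genes. The groups overlapped in all 9 members, and did not overlap in 6.06% of all genes.

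**Figure D2:**
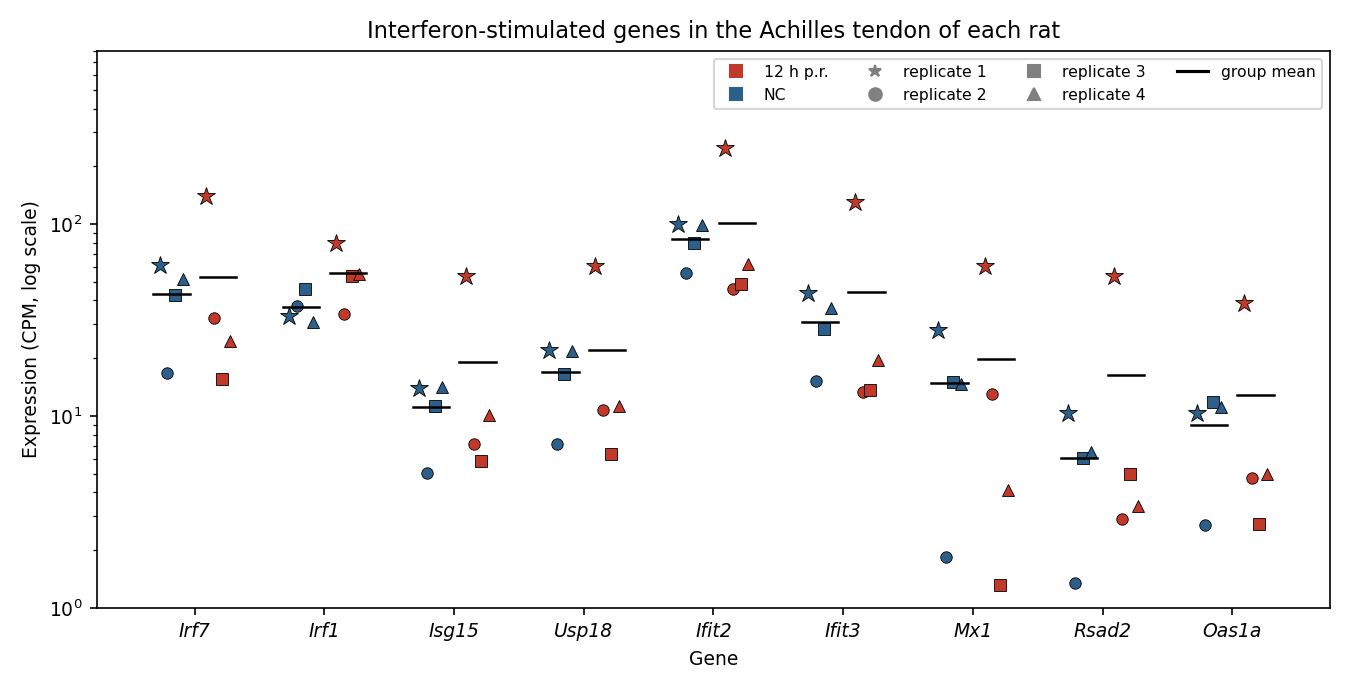
Expression of the 9 genes in each rat in CPM on a log scale, with NC rats in blue, 12 h p.r. rats in red, a marker shape per replicate number, and a black bar at the group mean. The red star, 12 h p.r. replicate 1, is the highest point of every gene, and the other red points of all genes but *Irf1* lie below 3 of the 4 blue ones.

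*Irf7* encodes the transcription factor that amplifies type I interferon production. Its level was 140, 32.5, 15.5, and 24.6 CPM in 12 h p.r. replicates 1 to 4 and 61.1, 16.7, 42.5, and 51.9 CPM in NC replicates 1 to 4. The first running rat was thus 2.29 times the next highest rat, an NC rat, and the other 3 running rats were below 3 of the 4 NC rats. The running rats averaged 53.1 ± 58.1 CPM (SD, n = 4) and the NC rats 43.1 ± 19.1 CPM (SD, n = 4). The log2 fold change, 0.29 with a standard error of 0.67 (edgeR adjusted p = 0.916), was smaller than its error.

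*Irf1* encodes the founding member of the interferon regulatory factors and answers to interferon-gamma and to other inflammatory signals. It was at 79.2, 33.9, 53.8, and 55.1 CPM in the running rats and at 33.1, 37.4, 46.1, and 31.0 CPM in the NC rats. Here 3 of 4 running rats were above every NC rat, and replicate 2 of the running group was within the NC range. The running rats averaged 55.5 ± 18.6 CPM (SD, n = 4) and the NC rats 36.9 ± 6.67 CPM (SD, n = 4). The log2 fold change of 0.59 (standard error 0.24) had an unadjusted p of 0.0338 and an edgeR adjusted p of 0.49. Over all splits of the 8 rats, the 2-sided exact permutation test gave p = 0.0857, where 0.0286 is the smallest value that 4 rats against 4 allow.

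*Isg15* encodes a ubiquitin-like protein that is joined to other proteins in infected cells. Its values were 53.6, 7.11, 5.83, and 10.1 CPM in the running rats and 13.9, 5.03, 11.3, and 14.1 CPM in the NC rats. *Usp18* encodes the protease that removes ISG15 and also damps signaling at the type I receptor. Its values were 60.2, 10.8, 6.31, and 11.3 CPM in the running rats and 22.0, 7.11, 16.5, and 21.8 CPM in the NC rats. In both genes, 12 h p.r. replicate 1 was far above all others and NC replicate 2 was the lowest or next to lowest rat. The log2 fold changes were 0.77 (standard error 0.70) for *Isg15* and 0.38 (standard error 0.68) for *Usp18*, with edgeR adjusted p values of 0.757 and 0.889.

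*Ifit2* and *Ifit3*, whose products bind foreign RNA, lie next to each other on chromosome 1, with *Ifit1bl* as the next coding gene in the annotation of GRCr8. *Ifit2* was at 249, 46.0, 48.8, and 62.1 CPM in the running rats and at 100, 55.4, 79.3, and 99.1 CPM in the NC rats. *Ifit3* was at 131, 13.4, 13.7, and 19.6 CPM in the running rats and at 43.8, 15.2, 28.5, and 36.4 CPM in the NC rats. The order of the rats was alike in both genes, with 12 h p.r. replicate 1 at 2.48 and 3 times the next rat and running replicates 2 and 3 the lowest. The log2 fold changes were 0.28 (standard error 0.53) and 0.51 (standard error 0.74).

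*Mx1* encodes a GTPase that traps viral components. It was at 60.4, 13, 1.31, and 4.13 CPM in the running rats and at 28.2, 1.84, 15.0, and 14.6 CPM in the NC rats. This was the widest range among the members, 46.2-fold between the highest and the lowest rat, and the log2 fold change was 0.38 (standard error 1.02). *Rsad2* encodes viperin, a radical SAM enzyme that makes a chain-terminating nucleotide, and lies beside *Cmpk2*. It was at 53.8, 2.90, 5, and 3.38 CPM in the running rats and at 10.3, 1.35, 6.04, and 6.46 CPM in the NC rats. Its first running rat was 5.25 times the next, the largest gap among the members, and gave the largest log2 fold change, 1.4 with a standard error of 0.98 (edgeR adjusted p = 0.682). *Oas1a* encodes an oligoadenylate synthetase, which senses double-stranded RNA. It was at 38.8, 4.74, 2.74, and 4.98 CPM in the running rats and at 10.4, 2.70, 11.8, and 11.1 CPM in the NC rats. Its log2 fold change was 0.49 (standard error 0.81). *Oas1a* has close relatives beside it, and the handling of reads that fit more than 1 gene is not given in the sources used here, so its level is uncertain in that respect.

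For the 8 members other than *Irf1*, the adjusted p values of edgeR lay between 0.682 and 0.927, and exact permutation tests of log2(CPM + 0.5), run for the 9 genes, gave p values from 0.714 to 0.971 (2-sided, n = 4 and 4). The median log2 fold change of the 9 members was 0.49, against 0.02 over all genes tested. All 9 fold changes were above 0, as were 54.2% of all genes tested, and the direction of 8 of them rested on 12 h p.r. replicate 1. Without that rat, the log2 fold changes of the 8 members other than *Irf1* ran from −1.3 (*Mx1*, standard error 0.88) to −0.53 (*Isg15*, standard error 0.36). The median over the 9 was then −0.84, against 0.02 over all genes, and 8 of 9 were below 0, against 46.9% of all genes. That rat was singled out as the highest in all 9 members, so leaving it out lowers each fold change by construction. The shares over all genes are therefore not a like reference. The p values of this fit do not test a drop in the other running rats. In this fit 3 members were lower at an unadjusted p value under 0.05, against 3.75% of all genes. They were *Ifit2* (−0.68, standard error 0.22), *Ifit3* (−0.99, standard error 0.33), and *Oas1a* (−1.12, standard error 0.48), and after adjustment their p values by edgeR were 0.557, 0.568, and 0.616. The share of all genes with an adjusted p value under 0.05 was 0% there. *Irf1* kept its direction without that rat, at 0.37 (standard error 0.20, edgeR adjusted p = 0.665). With all 8 rats, the direction also turned with the kind of mean. On the log scale, where a single high rat weighs less, the mean of the running rats was below that of the NC rats in 6 of 9 members (*Mx1*, *Ifit2*, *Ifit3*, *Irf7*, *Usp18*, and *Oas1a*), with a mean log2(CPM + 0.5) of 3.19 and 3.48 for *Mx1*.

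**Figure D3:**
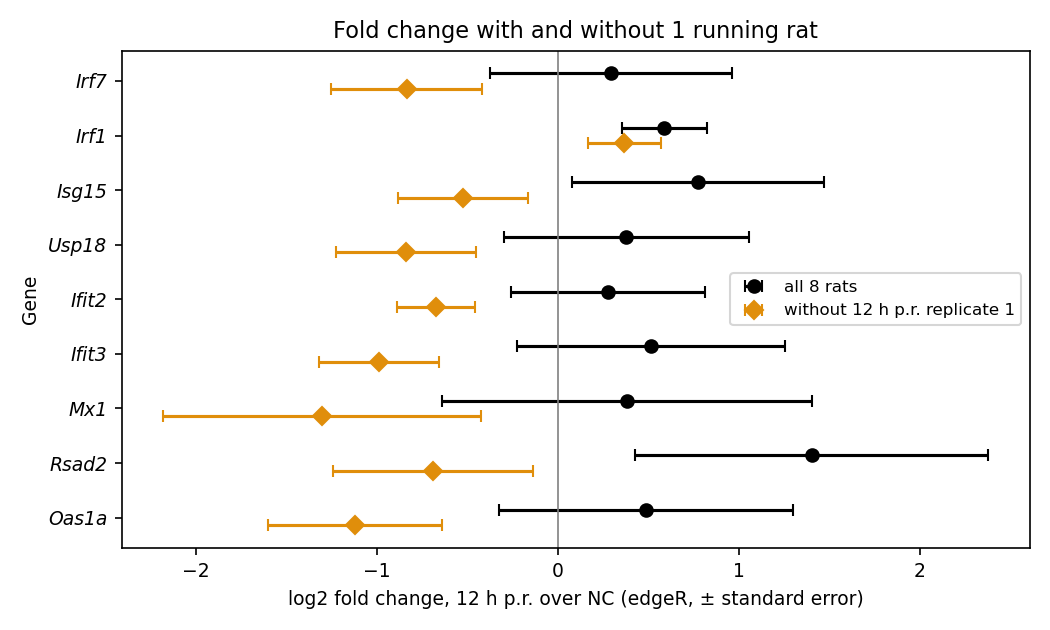
Log2 fold change of 12 h p.r. over NC by edgeR with its standard error on the x axis, 1 line per gene, with all 8 rats (black circles) and without 12 h p.r. replicate 1 (orange diamonds). Leaving out that rat moved 8 of 9 genes from above 0 to below 0, and *Irf1* stayed above 0.

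The members varied together from rat to rat. Between the 28 pairs of members other than *Irf1*, Pearson's r of log2(CPM + 0.5) over the 8 rats had a median of 0.94 (lowest, 0.78), and Spearman's rho a median of 0.88. With the group means taken off, the median r was 0.96, and without 12 h p.r. replicate 1 it was 0.89 (lowest, 0.65). *Irf1* did not share this order. Its r with the other 8 members had a median of 0.41 over the 8 rats and of −0.42 without 12 h p.r. replicate 1, and its rho with them over the 8 rats had a median of 0.02. The values of a pair come from the same libraries, and the members were chosen as a family, so these coefficients are given as a description without a test. The spread was also wide in absolute terms, with a median SD of log2(CPM + 0.5) of 1.41 in the running group and 0.74 in the NC group for the members, against 0.23 and 0.20 for all genes tested. The running value rested in large part on 12 h p.r. replicate 1. The other running rats lay between 46 and 62.1 CPM for *Ifit2*, against 55.4 to 100 CPM in the NC group. They stayed wide for *Mx1* (1.31 to 13 CPM). For *Irf1* they lay between 33.9 and 55.1 CPM, against 31 to 46.1 CPM in the NC group.

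The mean log2(CPM + 0.5) of the 8 members other than *Irf1* was 6.35 in 12 h p.r. replicate 1 and 3.59, 2.99, and 3.57 in the other running rats. It was 4.77, 2.88, 4.32, and 4.52 in NC replicates 1 to 4. The lowest 2 rats, NC replicate 2 and 12 h p.r. replicate 3, were also the lowest in macrophage and monocyte markers. The sum of 13 such markers was 502 CPM in NC replicate 2 and 1470, 1150, and 1300 CPM in the other NC rats, and it was 702, 1070, 411, and 859 CPM in running replicates 1 to 4. The log2 fold change was below 0 for 12 of these 13 markers (range, −0.83 to 0.17), and 0 of 13 had an unadjusted p value under 0.05. The part of macrophages in the lower members of running replicates 2 to 4 was not tested. In 12 h p.r. replicate 1 the macrophage sum lay between those of the other running rats, and 0 of 13 markers were highest in it.

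Plasmacytoid dendritic cells make much type I interferon. The sum of their 7 listed markers ran from 134 to 208 CPM in the running group and from 110 to 158 CPM in the NC group, with the highest sum, 208 CPM, in 12 h p.r. replicate 1. That rat was also the highest in 5 of the 7, *Siglech* (0.388 CPM), *Spib* (1.29 CPM), *Il3ra* (26.8 CPM), *Bst2* (117 CPM), and *Irf8* (26.1 CPM). Of these, *Bst2* and *Irf8* are themselves interferon-stimulated and made up most of its sum. *Tcf4* was at 36.6 CPM in 12 h p.r. replicate 1 and was highest in NC replicate 4, at 44.8 CPM. *Siglech*, *Spib*, and *Ccr9* were below the filter on low counts, with 8, 24, and 4 reads over the 8 rats, and *Ccr9* had 0 reads in the running group. *Il3ra* was higher in the running group by a log2 value of 0.43 with a standard error of 0.14 (unadjusted p by edgeR 0.0143, adjusted p 0.433). The part of these cells in the members' levels was not tested. Of the 9 matched T, B, and NK cell markers, 5 were at or below 1 CPM in every rat, and their sum ran from 10.9 to 40.6 CPM and from 15.0 to 52.3 CPM. Neutrophil markers summed to 7.77 to 17.4 CPM and 9.06 to 15.1 CPM, endothelial markers to 1170 to 1430 CPM and 1240 to 1350 CPM, and adipocyte markers to 1540 to 4720 CPM and 2670 to 4490 CPM. The sum of the cartilage and bone markers was raised in 12 h p.r. replicate 1, at 467 CPM against at most 61.7 CPM in the other running rats. *Col2a1* (167 CPM), *Bglap* (148 CPM), *Ibsp* (62.5 CPM), and *Mmp13* (50.7 CPM) made up most of it, and *Bglap* and *Mmp13* were below the filter. Not all markers were raised there. *Hapln1* was at 28.9 CPM, below running replicates 2 and 4 (49.4 and 47.6 CPM), and *Matn3* was at 0 CPM. The highest sum, 1290 CPM, was in NC replicate 3, whose mean of the 8 members (4.32) was within the range of the NC group. The part of cartilage and bone tissue in the members' levels was not tested.

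**Figure D4:**
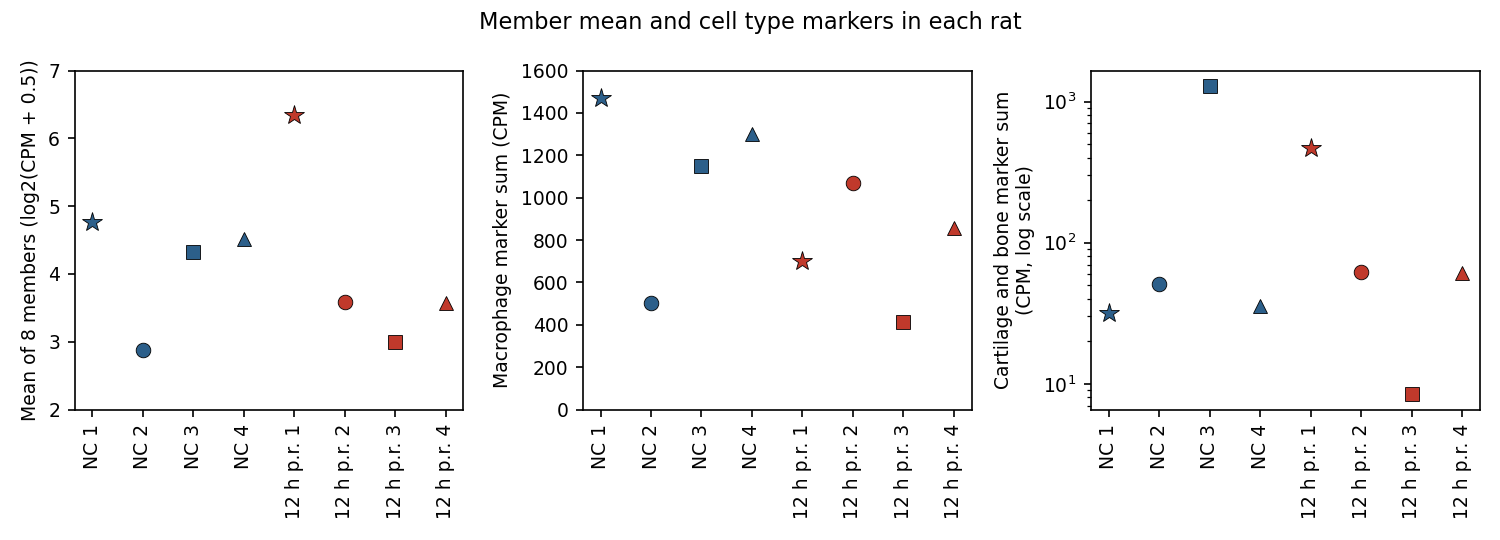
The mean log2(CPM + 0.5) of the 8 members other than *Irf1* (left), the summed CPM of 13 macrophage and monocyte markers (middle), and the summed CPM of 8 cartilage and bone markers on a log scale (right), for each NC rat (blue) and 12 h p.r. rat (red). 12 h p.r. replicate 1 (red star) has the highest member mean, 6.35, a macrophage sum of 702 CPM, and the second highest cartilage and bone sum, 467 CPM.

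Other genes of the pathway were taken from lists of ligands, receptors, sensors, transcription factors, and effectors with 105 symbols. Of these 97 matched a gene and 83 were tested, while 8 were not analysed here. At an unadjusted p value under 0.05, 2 of the 83 were higher and 2 were lower in the running group, against 5.44% and 4.08% of all genes, and after adjustment 0 were. The median log2 fold change was 0.18. In 53 of the 83 (63.9%), 12 h p.r. replicate 1 was the highest rat, and in 19 it was at least 2-fold above every other rat. Over all genes tested, 60 were led by this rat in that way, of which 8 were members, 19 were of the pathway lists, and 33 were other genes. Without this rat, 2 of 84 pathway genes tested were higher and 13 lower at an unadjusted p value under 0.05, against 4.31% and 3.75% of all genes, and their median was −0.11. Since this rat was the highest in most of the pathway genes, leaving it out lowers them by construction. The shares over all genes are not a like reference here either.

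Transcripts of the interferon genes listed here were close to undetected, and other interferon genes were not examined. Of 8 ligand genes listed, 7 matched, and 6 of them had 0 reads in every rat. The sole read on a ligand gene, *Ifna2*, was in NC replicate 4. A count of 0 allows a level of up to 0.227 to 0.395 CPM, 3 counts in a library, so a low level could not be detected at this depth. The receptor and kinase genes were expressed, and 1 of 11 tested in that list passed an unadjusted p value under 0.05, against 9.51% of all genes. This was *Ifngr1*, which encodes the ligand-binding chain of the interferon-gamma receptor, at 131, 120, 124, and 132 CPM in the running rats and 174, 146, 140, and 204 CPM in the NC rats. Every running rat was below every NC rat, while the groups did not overlap, in either direction, in 6.06% of all genes. The log2 fold change of *Ifngr1* was −0.39 with a standard error of 0.13 (edgeR adjusted p = 0.433). *Jak1*, the kinase shared by both interferon receptors, had −0.12 as its log2 fold change, with a standard error of 0.11 (edgeR adjusted p = 0.744). *Irf9*, the DNA-binding part of the ISRE complex, was at 69.9 CPM in 12 h p.r. replicate 1 and between 25.2 and 47.3 CPM in the other rats, with a log2 fold change of 0.03 (standard error 0.32). Without that rat, *Irf9* was at −0.42 with a standard error of 0.18 (unadjusted p by edgeR 0.0453, adjusted p 0.616).

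Among the sensors and adaptors, 1 of 11 tested passed an unadjusted p value under 0.05, against 9.51% of all genes. *Tlr7*, an endosomal receptor for single-stranded RNA, was at 13.5, 18.8, 6.43, and 9.76 CPM in the running rats and 30.3, 11.2, 22.0, and 26.2 CPM in the NC rats, which gave a log2 fold change of −0.9 with a standard error of 0.37 (edgeR adjusted p = 0.498). Running replicate 1 was not high in *Tlr7*, and without it the value was −0.95 (unadjusted p by edgeR 0.0532). For *Myd88*, the adaptor of this receptor, the log2 fold change was 0.15 with a standard error of 0.09, and for *Irf3*, a constitutive factor that starts the interferon response, it was −0.02 with a standard error of 0.16. Of 7 other interferon regulatory factors tested, 0 passed.

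Of 36 other antiviral effector genes tested, 1 was higher and 0 were lower at an unadjusted p value under 0.05, against 5.44% and 4.08% of all genes. In 31 of the 36, 12 h p.r. replicate 1 was the highest rat, against 13% of all genes. The higher gene was *Isg20*, an exonuclease gene, with 0.49 as the log2 fold change and 0.21 as its standard error (edgeR adjusted p = 0.52). Its highest rat was running replicate 2, at 12.1 CPM, and without running replicate 1 the value of *Isg20* was 0.48 (unadjusted p by edgeR 0.0837). *Mx2*, the gene of the second Mx GTPase, was chosen after its values were seen. It was at 199, 17.9, 11.5, and 18.4 CPM in the running rats and 43.6, 10.2, 37.1, and 39.6 CPM in the NC rats, with the same highest rat as its relative *Mx1*. As in *Mx1*, the log2 fold change of *Mx2* turned when that rat was left out, from 0.91 (standard error 0.90) to −1.04 (standard error 0.44). The members of the list with the highest levels, *Ifitm3* (mean, 628 FPKM) and *Ifitm2* (mean, 570 FPKM), which encode membrane proteins that block virus entry, did not follow it. *Ifitm3* was at 442, 428, 378, and 446 CPM in the running rats and 525, 345, 479, and 491 CPM in the NC rats. Their log2 fold changes were −0.12 (standard error 0.15) and 0.02 (standard error 0.12).

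Of 20 interferon-gamma and antigen presentation genes tested, 1 was higher and 0 were lower at an unadjusted p value under 0.05, against 5.44% and 4.08% of all genes. For *Tap2*, a subunit of the peptide transporter for class I molecules, the log2 fold change was 0.53 with a standard error of 0.21 (edgeR adjusted p = 0.492), and its highest rat was running replicate 4. *Cxcl10*, a chemokine gene chosen after its values were seen, was at 29.4, 1.45, 4.88, and 3.66 CPM in the running rats and 6.17, 1.23, 2.79, and 1.61 CPM in the NC rats. The log2 fold change of *Cxcl10*, 1.7 with a standard error of 0.89 (edgeR adjusted p = 0.581), was the largest of the list with all 8 rats, and without 12 h p.r. replicate 1 it was 0.16 with a standard error of 0.60. *B2m*, the light chain of class I molecules, was the most abundant gene of the list (mean, 1279 FPKM), and its log2 fold change was −0.37 with a standard error of 0.18 (edgeR adjusted p = 0.55). *Cd74*, the invariant chain of class II molecules, was at −0.62 with a standard error of 0.28 (edgeR adjusted p = 0.531), and NC replicate 2 was the lowest NC rat at 221 CPM. Without running replicate 1, *Cd74* was at −0.81 with a standard error of 0.29 (unadjusted p by edgeR 0.0239, adjusted p 0.569).

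Genes were also ranked by their likeness to the members, as Pearson's r over the 8 rats between log2(CPM + 0.5) and the mean standardized value of the 9 members. The first 100 of 13937 genes held 8 members, 34 genes of the pathway lists, and 58 others, and *Irf1* was in place 1402 (r = 0.497). Each member is part of the mean it was compared with, so the places of the members are partly built in. Outside the lists, the 5 most alike were *Samd9* (r = 0.994, rho = 1), the unnamed gene AABR07059663.1 (r = 0.984, rho = 1), *RT1-Ba* (r = 0.979, rho = 0.952), *Parp12* (r = 0.975, rho = 0.929), and *Apol9a* (r = 0.969, rho = 1). Since they were picked for this value, it is a description. *RT1-Ba*, a class II antigen gene, was at 98.9, 16.1, 10.5, and 19.7 CPM in the running rats and 34.1, 13.7, 32.9, and 34.2 CPM in the NC rats.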

How the data were processed

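The labels place 4 libraries in the 12 h p.r. group and 4 in the NC group. The authors aligned reads to Rnor_6.0 with HISAT2 2.1.0 and deposited raw counts per Ensembl gene from featureCounts 1.6.3, without stating whether counting used strand. The authors also deposited FPKM values. Between rats these were in proportion to counts divided by the size factors of DESeq2 (checked on 11154 genes). The scaling by gene length was not checked. A deposited table of the authors' own comparison (fold changes, p-values, and repeated FPKM in 8 columns) was not used.

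Counts were filtered with filterByExpr of edgeR 4.0.16, scaled by TMM, and tested with glmQLFit and glmQLFTest. P values were adjusted over all 13937 genes after Benjamini and Hochberg. A standard error is the log2 fold change divided by the root of the F statistic. Alternatives were DESeq2 1.42.0, RLE factors, other count filters, limma 3.58.1 on log2(FPKM + 1) for genes with a mean of at least 0.1 FPKM, a replicate block, and fits without 1 rat or without both replicates 3. In counts simulated for this comparison over 13937 genes, 200 genes drawn at random were changed, and edgeR called 92.2% of 4-fold changes. Of the 153 genes that edgeR called there, 142 had been changed, and of the 207 that DESeq2 called, 167 had. The members spread more between rats than most genes, so the share of 92.2% does not carry over to them. The software was R 4.3.3 and Python 3.11.15.

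The members and lists were chosen with earlier results of these data known. Named pathway genes are those with an unadjusted p value under 0.05, the 2 with the highest mean FPKM per list, and the 5 most like the members outside the lists. *Mx2* and *Cxcl10* fall outside this rule and were chosen after their values were seen, and cell type markers are named from the marker lists. Motif positions and promoter sequences come from RefSeq (GRCr8), another build than that of the counts. The labels do not state that samples with equal numbers pair, and no 2 replicates agreed within sampling noise.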

Additional observations from a re-analysis of the deposited data

Results flagged for a closer look

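The search covered 62 groups of 4 values, over the members, the genes of the pathway lists named by the rule above, the marker sums, and the total counts. *Mx2* and *Cxcl10*, which fall outside that rule, were not searched. Of the 62 groups, 6 held a rat far from the other 3 by Dixon's criterion, where about 3.1 are given by chance. Among the members these were *Ifit3* in 12 h p.r. replicate 1, at a log2(CPM + 0.5) of 7.04 against at most 4.33 in the other running rats, and *Oas1a* in NC replicate 2, at 1.68 against at least 3.45 in the other NC rats. The other members did not reach this criterion in either group, but *Ifit2* and *Rsad2* fell just short of it in the running group. This does not make them free of an outlying rat. In 8 of the 9 members, 12 h p.r. replicate 1 was at least 2-fold above every other rat. In *Rsad2* it was at 53.8 CPM, against at most 5 CPM in the other running rats. *Cd74* was low in NC replicate 2, at 7.79 against at least 8.85. In log2 CPM, the neutrophil marker sum was high in NC replicate 1 (3.92, against at most 3.29), the skeletal muscle sum in the third running rat, 12 h p.r. replicate 3 (15.8, where the next was 11.54), and the cartilage and bone sum in NC replicate 3 (10.33, against at most 5.67).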

How the results depend on the processing

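No member had an adjusted p value under 0.05 in any fit. Of 135 fold changes of members in other fits, 115 kept their direction and 20 turned, 8 of them without 12 h p.r. replicate 1. Without 1 rat in turn, the log2 fold change ran from −0.53 to 1.07 for *Isg15*, −1.3 to 0.88 for *Mx1*, −0.68 to 0.52 for *Ifit2*, −0.99 to 0.81 for *Ifit3*, −0.84 to 0.6 for *Irf7*, 0.37 to 0.76 for *Irf1*, −0.69 to 1.78 for *Rsad2*, −0.84 to 0.68 for *Usp18*, and −1.12 to 0.81 for *Oas1a*, and the median of the members from −0.84 to 0.76. In each range the lowest value was without 12 h p.r. replicate 1. The members with an unadjusted p value under 0.05 numbered 0 to 3 in these fits, the pathway genes 1 to 15, and the genes with an adjusted p value under 0.05 were 0 in each, with 879 to 1580 at an unadjusted p value under 0.05. With limma on log2(FPKM + 1), *Mx1* was at −0.15, *Ifit2* at −0.08, *Ifit3* at −0.11, *Irf7* at −0.09, *Usp18* at −0.05, and *Oas1a* at −0.06, with 0 members at an unadjusted p value under 0.05 and 0 genes at an adjusted one. With the replicate block, *Mx1* was at −0.26, *Ifit2* at −0.1, *Ifit3* at −0.14, *Irf7* at −0.09, *Usp18* at −0.06, and *Oas1a* at −0.12, with 0 members at an unadjusted p value under 0.05 and 0 genes at an adjusted one. The deviations of same-numbered rats correlated at 0.07, −0.2, 0.13, and 0.09, and the largest values with another number were 0.03, 0.34, 0.32, and 0.2. No pairing by number was seen in these values, which cannot show whether same-numbered rats shared a handling step. After adjustment the Wald test of DESeq2 called 96 genes (0.685%), where edgeR called 1, with 8 pathway genes at an unadjusted p value under 0.05 against 4. It gave *Isg15*, *Ifit2*, *Usp18*, and *Oas1a* no p value, and *Irf1* an adjusted p of 0.38. Without both replicates 3, 0 genes had an adjusted p value under 0.05 and 9 pathway genes an unadjusted one. The causes were not tested.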
